A study of Mus musculus with 9 samples.

Results

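The genes described here encode the receptors and coreceptors through which myeloid cells sense bacterial and viral products: CD14, the Toll-like receptors TLR1, TLR2, TLR4, TLR6 and TLR7, the accessory proteins MD-2 (gene Ly96), MD-1 (gene Ly86) and RP105 (gene Cd180), and the adaptor MyD88. The members were all probe sets that the array's annotation assigns to 1 of these 10 gene symbols alone, which gave 15 probe sets of 45037 that are no controls, and 10 genes of 18193. RNA was measured on 9 Affymetrix arrays, each with a sorted sample of EYFP-positive granulocyte-macrophage progenitors (GMPs), the bone marrow cells that give rise to neutrophils and monocytes. Donor mice were bred from a floxed Dicer1 allele (Dicer1fl) and the Cebpa-Cre;R26-LSL-Eyfp line, so all groups carry Cre and the reporter. Cre is driven by Cebpa, and EYFP marks the cells, or the offspring of cells, in which it was active. Fetal liver cells of embryonic day 13.5 were injected into C57BL/6 recipients of 6 to 8 weeks irradiated with 8.5 Gy, and blood-forming tissue was taken 6 to 10 weeks later. The labels give 3 genotypes with 3 arrays each: Dicer wt (wild type here), Dicer het, given as Dicer -/wt in the study's design (heterozygous), and Dicer null, Dicer fl/fl in the design (null). Each liver typically went to 2 recipients, and which samples share a liver is not given, so p-values measure the spread between these samples, which may be technical. The comparisons ask how these transcripts differ with 1 or both copies of Dicer1, the ribonuclease gene needed to make mature microRNAs, removed.

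CD14 is a surface protein that takes lipopolysaccharide from the serum protein LBP and passes it to the complex of TLR4 and MD-2. TLR2 pairs with TLR1 or TLR6 to sense bacterial lipopeptides, and TLR7 senses single-stranded RNA in endosomes. RP105 with MD-1 resembles TLR4 with MD-2 but lacks the signalling domain. MyD88 links most of these receptors to IRAK kinases, TRAF6 and NF-kB.

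MicroRNAs are the direct product of the pathway that was deleted, and none was measured on these arrays. The mature sequences of those described as regulators of this system are shown because Dicer1 is the enzyme that releases them. Their seeds, bases 2 to 8 from the 5′ end, are in capitals. The sequences are from RefSeq, mouse build GRCm38.p6, in the order given: at chr10:122985698-122985719 on the minus strand, chr17:17830366-17830387 on the plus strand, chr11:43374435-43374456 on the minus strand and chr16:84714143-84714165 on the plus strand.
mmu-let-7i-5p: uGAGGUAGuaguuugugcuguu
mmu-let-7e-5p: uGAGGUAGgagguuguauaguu
mmu-miR-146a-5p: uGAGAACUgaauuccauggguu
mmu-miR-155-5p: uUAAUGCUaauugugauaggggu
The let-7 family has been described as a regulator of Tlr4, miR-146a of Irak1 and Traf6, and miR-155 of Inpp5d and Socs1. Both let-7 members share the seed GAGGUAG, which 11 mature mouse microRNA names in the table carry. The seed of miR-146a is carried by 2 names and that of miR-155 by 1.

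Values are MAS5 signals, on a linear scale in arbitrary units, with the 2% trimmed mean at 100 on every array. Differences are of log2(signal + 12), so those of dim genes are understated. A gene was called at a limma adjusted p under 0.05 (Benjamini-Hochberg over the 12347 genes tested). Dicer1 signals were 232 ± 11.1 on wild-type arrays, 185 ± 16.1 on heterozygous and 105 ± 9.46 on null arrays (SD, n = 3), and null fell by 1.07 against wild type (limma adjusted p = 1.88e-05). Heterozygous Dicer1 was not called against wild type (log2 difference -0.31, limma adjusted p = 0.217), although the signals did not overlap. The defining GMP genes were bright on all 9 arrays, with Mpo at 7201 to 8989 and Elane at 721 to 1078. Wild-type replicate 2 stood apart: its Xist signal was 2610 and its Eif2s3y signal 1.13, against 16.4 to 30.2 and 622 to 859 on the other arrays, while all samples are labelled female. Eif2s3y is Y-linked, so that label goes with the signals of wild-type replicate 2 and not with those of the other arrays. Wild-type replicate 2 was the lowest wild-type array for 7 of the 9 members tested and the highest for the others, Ly96 and Tlr6. In cell mixtures measured in bulk, fewer cells of a type and less RNA per cell cannot be told apart.

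Cd14 changed in all 3 comparisons, in opposite directions in the heterozygous and null samples. Its probe set 1417268_at read 34.0, 28.4 and 38.2 on wild-type arrays 1 to 3. The heterozygous arrays read 10.3, 13.4 and 13.3. The null arrays read 79.5, 90.2 and 95.7. All heterozygous arrays lay below all wild-type arrays and all null arrays above them, with no overlap. The heterozygous signals were near the floor. They lay close to the filter at 8.49 and to the median signal of an array, which was 12.4 to 16.1. The group means were 33.6 ± 4.91, 12.3 ± 1.77 and 88.5 ± 8.21 (SD, n = 3). Cd14 rose in null against wild type by 1.14 (SE 0.15, limma adjusted p = 0.000251) and fell in heterozygous against wild type by 0.90 (SE 0.15, limma adjusted p = 0.00635). Between null and heterozygous samples the rise was 2.04 (limma adjusted p = 4.57e-06), rank 6 by size of rise among all 12347 genes tested. These comparisons share groups, so the third is not independent of the others. All 3 calls held in each of 20 alternative fits, although the pseudocount set their size: with 1 in place of 12, heterozygous against wild type was -1.37, and with 32 it was -0.56.

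**Figure D1:**
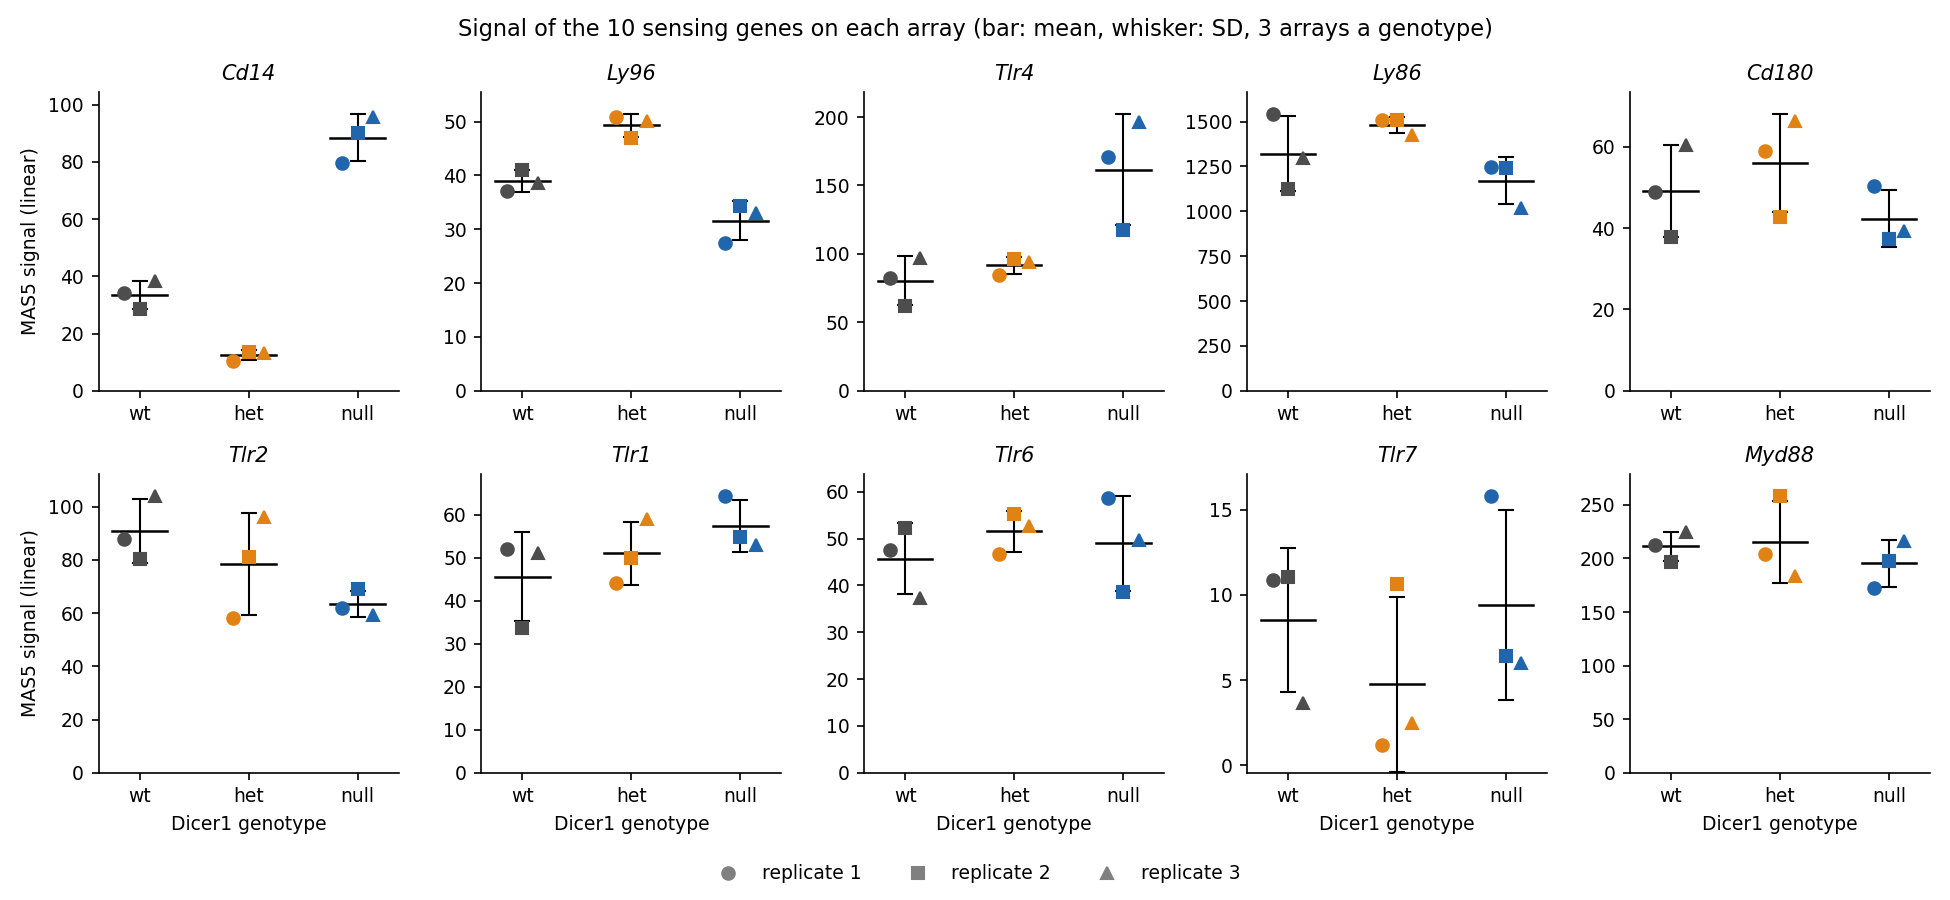
MAS5 signal (arbitrary units, linear axis, 1 scale per panel) of the probe set that stands for each of the 10 genes, 1 point per array with mean and SD, grouped as wild type (wt), heterozygous (het) and null. Cd14 reads 10.3 to 13.4 in het, 28.4 to 38.2 in wt and 79.5 to 95.7 in null samples, while Ly96 has the opposite order and Myd88 overlaps throughout.

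Other transcripts also differed in the heterozygous samples. Of 9 late neutrophil markers tested, 4 fell in heterozygous against wild type (Ltf, Ngp, Lcn2 and Chil3) and none rose. The summed signal of the 10 markers on the array was 4276 to 8215 on wild-type arrays, 2808 to 5167 on heterozygous and 2525 to 9364 on null arrays. Of these 10 markers 1 had a mean signal below the filter. In heterozygous against wild type 0 of the 9 differences were above 0, with a median of -1.07. In null against wild type 2 fell (Ltf and Ngp) and 0 rose by limma (3 had an unadjusted p under 0.05). Of the 9 differences 2 were above 0, and the median was -0.45. Between null and heterozygous samples 1 rose (Lcn2, a granule protein gene), 6 of 9 were above 0 and the median was 0.30. Of all genes tested, 1.39%, 15.7% and 14.3% were called in these comparisons, in the order given. The 5′ control probe set for 18S ribosomal RNA read 907 to 1932 on wild-type arrays, 2548 to 3128 on heterozygous and 1338 to 1830 on null arrays. The part of these differences in the Cd14 result was not tested.

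Tlr4, the lipopolysaccharide receptor itself, rose in null samples against both other genotypes, which were not called against each other. Probe set 1418162_at read 82.3, 61.6 and 97.4 on wild-type arrays, 84.6, 96.0 and 94.4 on heterozygous and 171, 117 and 196.5 on null arrays. Every null array was above all others, and the wild-type and heterozygous arrays overlapped. The means were 80.4 ± 17.95, 91.7 ± 6.18 and 162 ± 40.5 (SD, n = 3). Tlr4 rose in null against wild type by 0.90 (SE 0.18, limma adjusted p = 0.0036), a call that held in all 20 alternatives. Heterozygous and wild-type samples differed by 0.18 (95% interval -0.19 to 0.56, limma adjusted p = 0.745). Against heterozygous samples the rise was 0.72 (limma adjusted p = 0.0147). That call was lost without null replicate 1 (0.0522), null replicate 3 (0.071) or heterozygous replicate 1 (0.0652), and without the variance trend (0.051).

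Tlr4 has 3 further probe sets, and none was called when every probe set was tested on its own, a fit that called 12.3%, 1.06% and 10.8% of 22365 probe sets in null against wild type, heterozygous against wild type and null against heterozygous. Probe set 1418163_at read 26.2, 34.5 and 27.3 on wild-type arrays, 30.8, 24.5 and 27.4 on heterozygous and 37.0, 38.2 and 50.9 on null arrays. The null arrays were again the highest, with a difference of 0.38 from wild type (unadjusted p = 0.0348, limma adjusted p = 0.151). Probe set 1442827_at read 13.8, 13.7 and 24.0, then 18, 18.6 and 22.6, then 44.4, 15.7 and 56.8 in the same order of groups. Null replicate 2, which was also the lowest null array for 1418162_at, lay among the other genotypes there, and the difference from wild type was 0.72 (unadjusted p = 0.0215, limma adjusted p = 0.111). Probe set 1430695_at was dim, at 0.526 to 10.8, and was not tested. For 1418162_at the same fit over probe sets gave limma adjusted p = 0.00488.

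**Figure D2:**
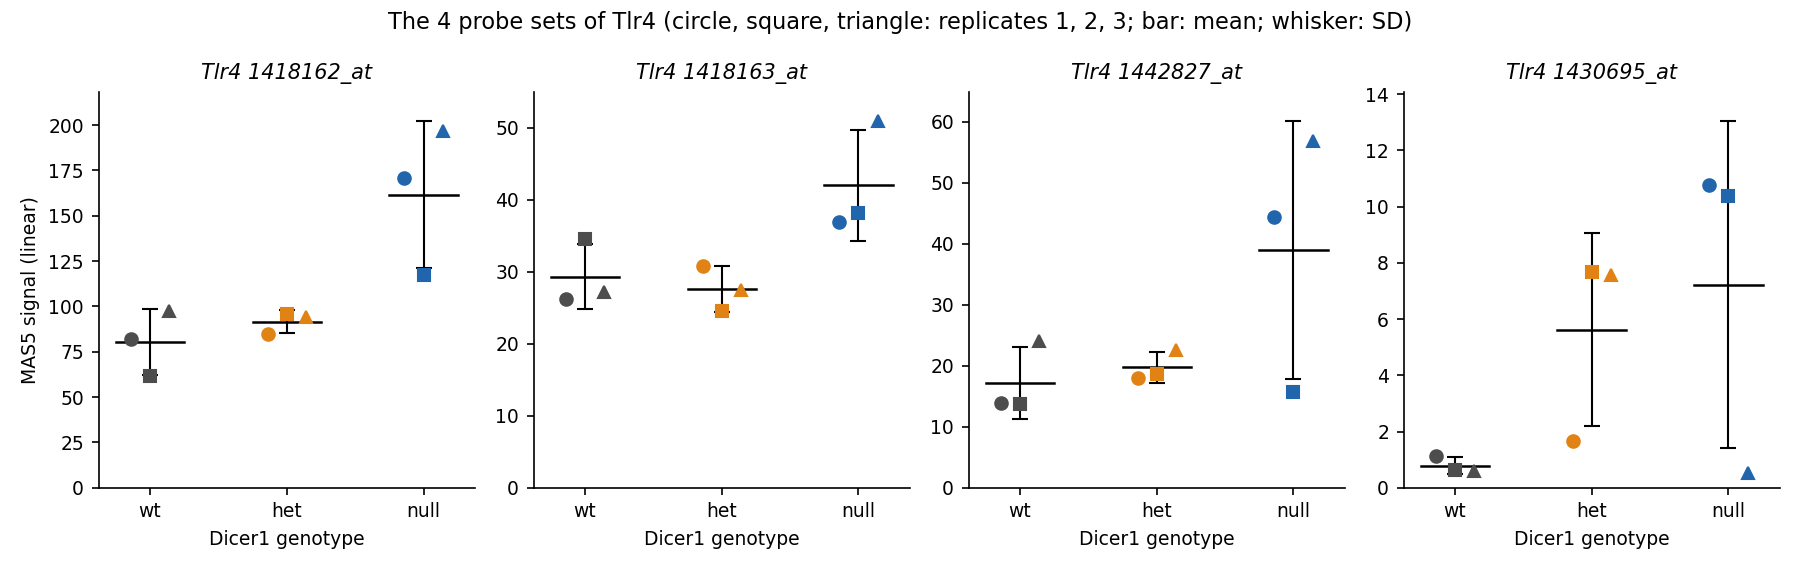
MAS5 signal (arbitrary units, linear axis, 1 scale per panel) of the 4 Tlr4 probe sets, 1 point per array with mean and SD, by genotype (wt, het, null). Null arrays lie highest for 1418162_at (117 to 196.5) and 1418163_at (37.0 to 50.9), 1 null array at 15.7 overlaps the other genotypes for 1442827_at, and 1430695_at stays at 0.526 to 10.8.

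Ly96 encodes MD-2, the protein that holds lipopolysaccharide against TLR4. Its signals were 37.1, 41.1 and 38.6 on wild-type arrays, 50.9, 46.9 and 50.1 on heterozygous and 27.5, 34.3 and 32.9 on null arrays. The genotypes did not overlap, and their order, null below wild type below heterozygous, was the reverse of that of Cd14. The differences were smaller, with means of 38.9 ± 2.02, 49.3 ± 2.10 and 31.6 ± 3.61 (SD, n = 3). Ly96 fell in null against heterozygous by 0.49 (SE 0.14, limma adjusted p = 0.03). It was not called in null against wild type (log2 difference -0.23, 95% interval -0.53 to 0.07, limma adjusted p = 0.319) or in heterozygous against wild type (0.27, limma adjusted p = 0.461). The call against heterozygous samples was lost on leaving out null replicate 1 (0.103) or 3 (0.0654) or heterozygous replicate 1 (0.09), 2 (0.064) or 3 (0.0753), and under quantile (0.0628) or cyclic loess (0.0676) normalization and without the filter (0.077).

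Ly86 and Cd180 encode the MD-1 and RP105 pair. Ly86 read 1541, 1124 and 1297 on wild-type arrays, 1506, 1506 and 1427 on heterozygous and 1247, 1242 and 1018 on null arrays. All null arrays were below all heterozygous arrays, and wild type overlapped both. Ly86 fell in null against heterozygous by 0.34 (SE 0.11, limma adjusted p = 0.0486), close to the threshold. The call held in only 2 of 9 fits that each left out an array, those without wild-type replicates 1 and 2. Without the other arrays the adjusted p was 0.0573, 0.0547 and 0.193 (null 1 to 3), 0.134, 0.133 and 0.0774 (heterozygous 1 to 3) and 0.0621 (wild type 3). The call was also lost with a pseudocount of 1 (0.0522), without the filter (0.0899), without the variance trend (0.14), when each gene's probe sets were averaged (0.071) and when each probe set was tested alone (0.0621). Against wild type the null samples differed by -0.17 (limma adjusted p = 0.34). Cd180 read 49.1 ± 11.3, 55.9 ± 12.1 and 42.3 ± 6.998 in wild-type, heterozygous and null samples (SD, n = 3). Its groups overlapped in every comparison, with a difference of -0.32 between null and heterozygous (95% interval -0.70 to 0.07, limma adjusted p = 0.283).

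B cells and dendritic cells also make RP105 and MD-1. In null against heterozygous samples, 1 of 7 tested B-lineage markers fell (Ighm) and none rose. Of all genes tested, 14.3% were called in that comparison in either direction and 7.49% were called lower. The summed signal of 13 B-lineage genes, 6 of them below the filter, was 628 to 770 in null samples. It was 1184 to 1312 in heterozygous and 1333 to 1575 in wild type. The defining B-lineage genes Cd79a, Pax5 and Ebf1 were near the floor, at 1.19 to 14.9 on all arrays. Of 10 tested dendritic markers 2 fell (H2-Aa and H2-Eb1), and the summed signal was 185 to 237 in null samples against 352 to 490 in heterozygous. The defining dendritic genes Itgax, Zbtb46, Siglech and Flt3 were dim, at 3.09 to 50.6, and none was called. The part of either in the Ly86 difference was not tested.

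The TLR2 family showed no called difference. Tlr2 read 87.8, 80.4 and 104 on wild-type arrays, 58.0, 81.1 and 96.2 on heterozygous and 61.9, 69.0 and 59.4 on null arrays. Every null array was below every wild-type array, and the heterozygous arrays spanned both. The difference of null from wild type was -0.44 (95% interval -0.78 to -0.10, unadjusted p = 0.0148, limma adjusted p = 0.0759). It passed the threshold in 1 of 20 alternatives, the fit without heterozygous replicate 1 (0.0397).

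Tlr1 read 52.1, 33.6 and 51.2 on wild-type arrays, 44.3, 49.9 and 58.9 on heterozygous and 64.3, 54.8 and 52.9 on null arrays. The null arrays lay above the wild-type arrays, the nearest by a small margin (52.9 against 52.1). The difference was 0.28 (limma adjusted p = 0.286), and leaving out the lowest array, wild-type replicate 2, made it 0.12. Tlr6 overlapped in every comparison, with means of 45.7 ± 7.60, 51.5 ± 4.39 and 49.0 ± 10.1 (SD, n = 3) and a difference of 0.08 between null and wild type (95% interval -0.27 to 0.42). Tlr7 had 3 probe sets, all below the intensity filter at a mean signal of 8.49. The one that stands for the gene, 1422010_at, read 10.9, 11.1 and 3.64 on wild-type arrays, 1.18, 10.6 and 2.46 on heterozygous and 15.8, 6.40 and 5.97 on null arrays, with all groups overlapping. Its difference was not tested.

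Myd88, the shared adaptor, read 212, 197 and 224 on wild-type arrays, 204, 258 and 184 on heterozygous and 172, 198 and 216 on null arrays. The groups overlapped in every comparison. Null differed from wild type by -0.11 (95% interval -0.38 to 0.16, limma adjusted p = 0.629), which leaves a change of the size seen for Cd14 or Tlr4 outside the interval.

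**Figure D3:**
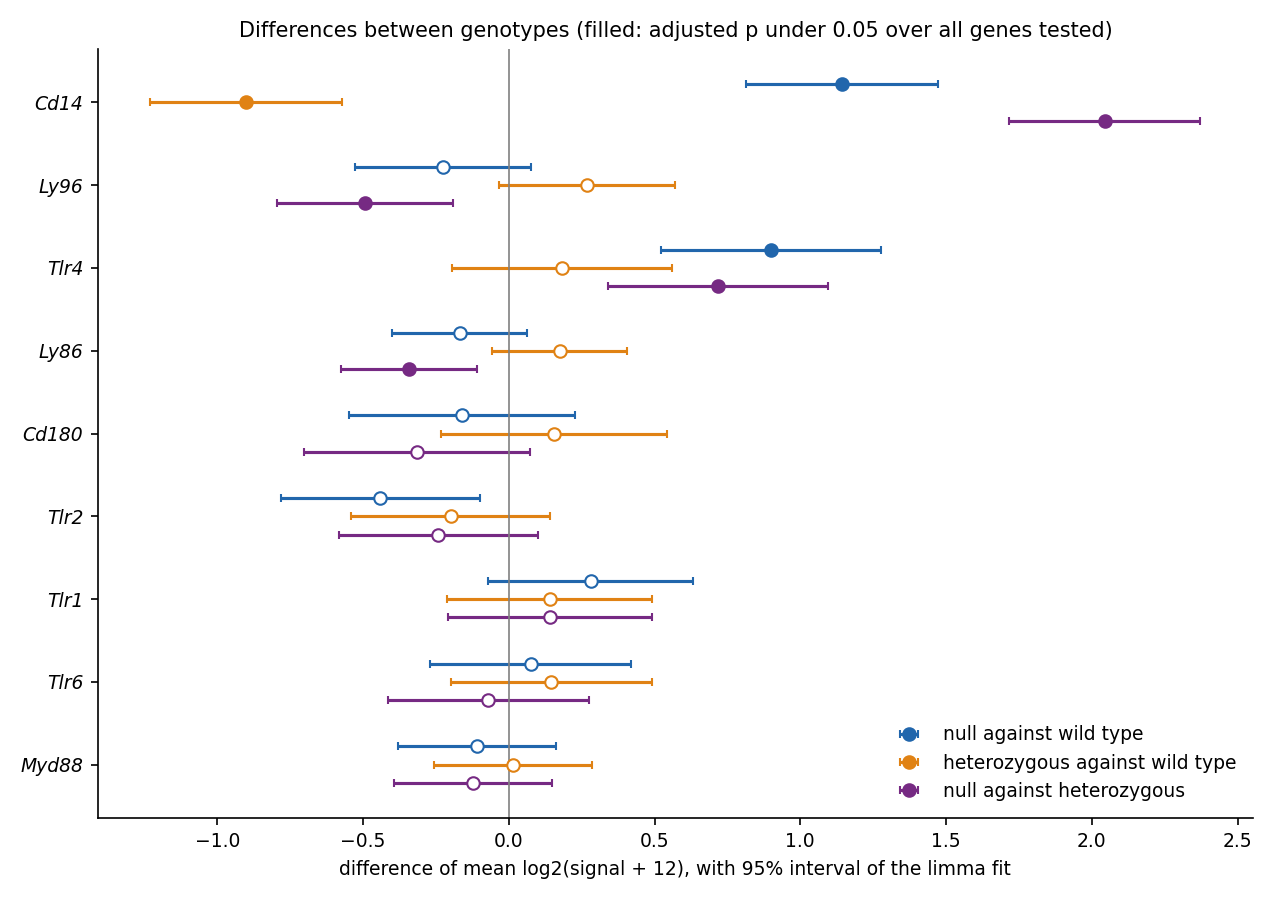
Differences of log2(signal + 12) for the 9 members tested in each of the 3 comparisons, with 95% intervals from the limma fit; filled points passed an adjusted p of 0.05. Cd14 stands at 1.14, -0.90 and 2.04 and Tlr4 at 0.90, 0.18 and 0.72, while the intervals of Myd88, Tlr6, Tlr1 and Cd180 include 0 in all comparisons.

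In null against wild type 2 of the 9 members tested rose and 0 fell by limma (3 had an unadjusted p under 0.05, the third being Tlr2), or 22.2%, where 15.7% of all 12347 genes were called, 7.6% higher and 8.09% lower. In heterozygous against wild type 1 fell and 0 rose, or 11.1%, beside 1.39% of all genes, 0.697% in each direction. In null against heterozygous 2 rose (Cd14 and Tlr4) and 2 fell (Ly96 and Ly86), or 44.4%, beside 14.3% of all genes, 6.84% higher and 7.49% lower. Signals did not overlap for 5, 2 and 4 members in these comparisons, and for 33%, 18.3% and 32.7% of all genes. The members' median differences were -0.11, 0.15 and -0.12, beside -0.04, -0.01 and -0.03 over all genes tested. Differences were above 0 for 4, 7 and 3 of the 9 members. Without null replicate 1, null replicate 3 or heterozygous replicate 1 the last count of calls was 1, and without heterozygous replicate 2 or 3 it was 2.

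**Figure D4:**
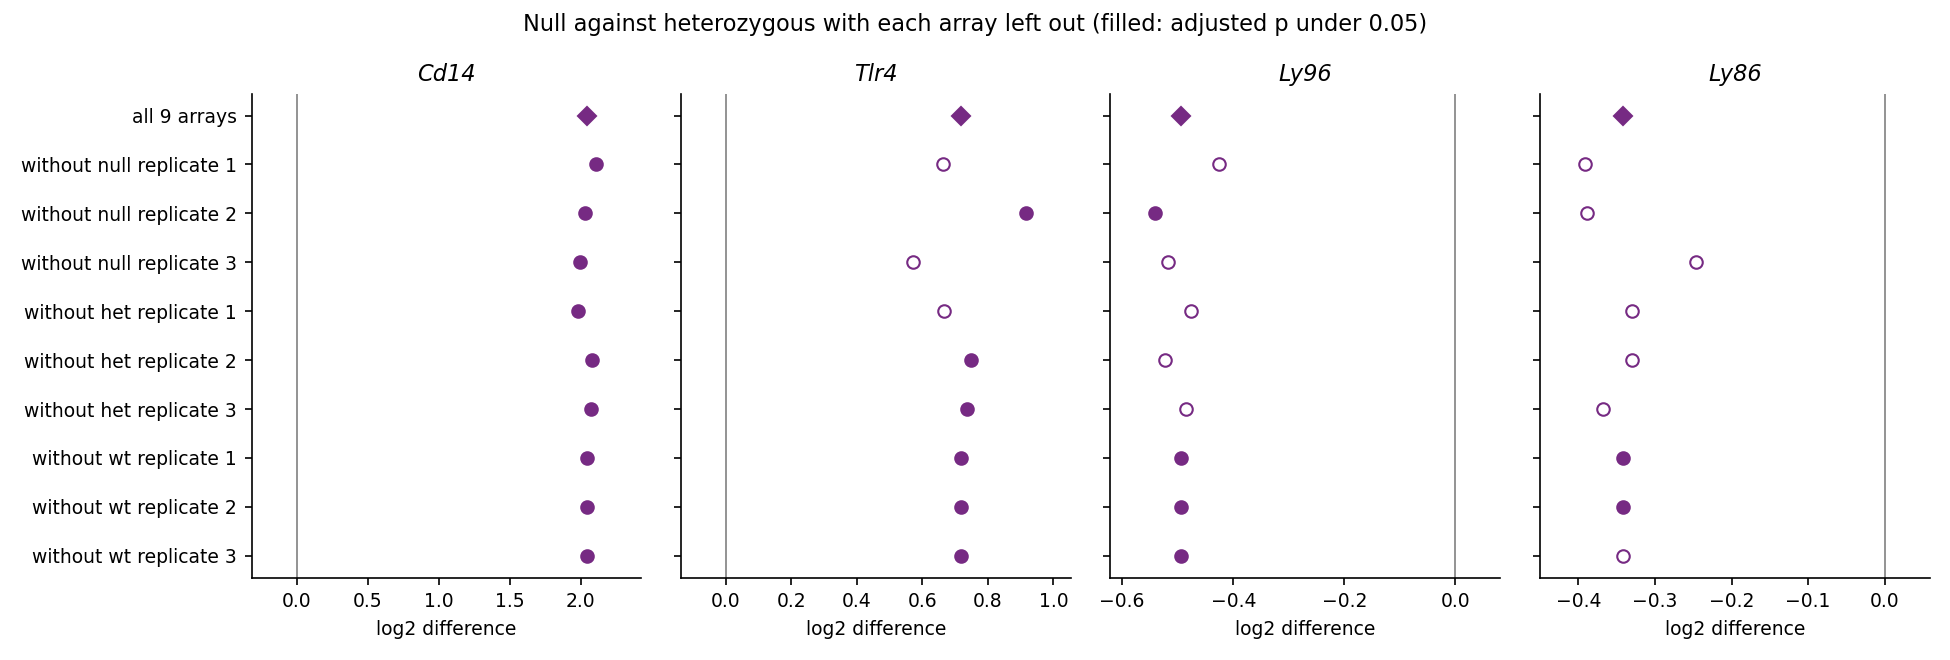
Differences of log2(signal + 12) between null and heterozygous (het) samples for the 4 members called there, with all 9 arrays (diamond) and with each array left out in turn (circles); filled points passed a limma adjusted p of 0.05. Cd14 is called in every fit, while Tlr4, Ly96 and Ly86 lose their call in 3, 5 and 7 of 9 fits.

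Promoter sequence was in the RefSeq table for 6 of the 10 members: Tlr2, Tlr1, Tlr6, Myd88, Ly86 and Cd180. The 250 bases before each start were searched on both strands for GAGGAA (core of PU.1 sites), TGTGGT (RUNX), TGANTCA (AP-1) and, for NF-kB, GGGA and CC with any 4 bases between, which 23.3%, 14%, 6.75% and 17.6% of 32851 windows of that length hold. Tlr2 held the NF-kB letters 172 bases before its start, Tlr1 the PU.1 letters in 1 of its 2 windows and Tlr6 the RUNX letters in 1 of its 2. The windows of Tlr2, the member with an NF-kB match, and of Ly86, the called member with a window, are printed 5′ to 3′ on the gene's strand (build GRCm38.p6; chr3:83841609-83841858, minus, and chr13:37345095-37345344, plus). Capitals mark the motif match, and Ly86 held none of the letters searched.
Tlr2: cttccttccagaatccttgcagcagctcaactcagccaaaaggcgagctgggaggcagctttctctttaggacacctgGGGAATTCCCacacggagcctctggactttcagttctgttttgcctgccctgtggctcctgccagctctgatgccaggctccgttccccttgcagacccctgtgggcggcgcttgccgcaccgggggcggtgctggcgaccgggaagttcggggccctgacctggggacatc
Ly86: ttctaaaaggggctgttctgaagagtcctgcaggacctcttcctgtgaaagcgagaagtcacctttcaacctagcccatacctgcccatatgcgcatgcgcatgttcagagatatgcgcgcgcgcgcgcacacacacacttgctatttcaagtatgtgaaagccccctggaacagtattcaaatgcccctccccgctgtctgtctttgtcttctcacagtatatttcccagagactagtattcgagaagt

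The rest of the pathway was described from a list of 108 genes, of which 94 had a probe set and 77 were tested; the other 14 were not analysed here. In null against wild type 9 of the 77 rose and 7 fell, or 20.8%, beside 15.7% of all genes. In heterozygous against wild type 1 rose and 6 fell, or 9.09%, beside 1.39%. In null against heterozygous 8 rose and 4 fell, or 15.6%, beside 14.3%. The median differences were 0.00, -0.02 and 0.05.

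Among the 7 tested genes that deliver ligands or fold and move the receptors, 3 rose in null against wild type and none fell. Lbp, which carries lipopolysaccharide to CD14, read 127, 155 and 214 on wild-type arrays, 217, 237 and 226 on heterozygous and 372, 283 and 392 on null arrays. The groups did not overlap, and the rise from wild type to null was 1.04 (SE 0.16, limma adjusted p = 0.000617). Its other probe set rose by 0.73 (limma adjusted p = 0.0438 over probe sets). Hsp90b1 encodes gp96, the chaperone that most Toll-like receptors need to fold, and rose by 0.41 (limma adjusted p = 0.00563). Atp6ap2, an accessory subunit of the vacuolar proton pump, rose by 0.30 (limma adjusted p = 0.00476). In null against heterozygous Atp6ap2 rose by 0.34 and Lbp by 0.59 (limma adjusted p = 0.00275 and 0.0232). Of the other Toll-like receptors Tlr5 and Tlr13 were tested, at differences of 0.22 and 0.01 between null and wild type, and neither was called. Both were near the floor, at 0.831 to 19.2 for Tlr5 and 6.92 to 21.5 for Tlr13 over all arrays, so a change could be missed.

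None of the 4 adaptors tested was called in null against wild type by limma, and 0 had an unadjusted p under 0.05. Pik3ap1 (BCAP), an adaptor to PI3-kinase, stood out in the heterozygous samples. It read 74.8, 78.3 and 88.8 on wild-type arrays, 212, 222 and 298 on heterozygous and 74.9, 77.0 and 87.0 on null arrays. Only the heterozygous arrays were high: Pik3ap1 rose by 1.45 against wild type (SE 0.13, limma adjusted p = 2.71e-05), and null samples differed from wild type by -0.01. Of 15 kinases and ubiquitin ligases, Tbk1 rose in null against wild type (0.26, limma adjusted p = 0.0383) and against heterozygous (0.32, 0.0139), where Tab2 also rose (0.25, 0.0497). Irak1 and Traf6, described targets of miR-146a, differed from wild type by 0.16 and 0.20 (limma adjusted p = 0.344 and 0.424). The probe sets of Irak1 disagreed: 2 others fell (-0.30 and -0.32, limma adjusted p = 0.042 and 0.0452 over probe sets), and the last was at 0.02.

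Of 14 inhibitors tested, Cyld and Usp25, both deubiquitinases, rose in null against wild type (0.50 and 0.35, limma adjusted p = 0.0202 and 0.0387), and Dusp1, a phosphatase of MAP kinases, fell by 2.91. Against heterozygous samples Irak3, which restrains IRAK signalling, rose by 0.41 (limma adjusted p = 0.03) and Inpp5d, which encodes the phosphatase SHIP1, by 0.40 (0.0336). Inpp5d, a described target of miR-155, differed from wild type by 0.29 (limma adjusted p = 0.103), and Socs1 was below the filter.

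The largest differences of the pathway list were in Jun, Fos, Dusp1 and Ccl3, which were high in wild type alone. The part of receptor signalling in these differences was not tested. Jun read 498, 673 and 569 on wild-type arrays, 69.9, 32.3 and 43.0 on heterozygous and 37.1, 54.2 and 17.6 on null arrays. Jun fell in both, with differences of -3.68 in null and -3.33 in heterozygous samples (limma adjusted p = 9.97e-07 and 5.86e-06). For Fos these differences were -2.65 and -2.47, and for Dusp1 -2.91 and -3.09 (limma adjusted p of 7.55e-05 or less for each). Ccl3, a chemokine gene, read 63.8, 78.4 and 69.5 on wild-type arrays, 8.19, 11.1 and 8.04 on heterozygous and 13.8, 17.8 and 11.5 on null arrays. Ccl3 differed from wild type by -1.65 and -1.97 (limma adjusted p = 3e-05 and 1.84e-05). Null and heterozygous arrays were both low for these 4 genes, and none of them was called between those genotypes, whereas the difference of Cd14 was largest there. Ccl4 fell in null samples (-0.70, limma adjusted p = 0.0289), and Ier3 and Nfkbia, the gene of the NF-kB inhibitor, fell in heterozygous samples (-1.06 and -0.53, limma adjusted p = 0.0262 and 0.0424). In null against wild type these genes differed by -0.63 and -0.27 (limma adjusted p = 0.0668 and 0.15). The probe sets of Nfkbia disagreed there: 1 other fell (-0.45, limma adjusted p = 0.0119 over probe sets), and the remaining ones, at -0.48 to 0.05, were not called.

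Of the 12 genes tested from the list of induced transcripts, 1 was called higher in null against wild type (Icam1, an adhesion receptor). In the same comparison 2 were called lower (Ccl3 and Ccl4), and 4 of the 12 differences were above 0. The other 8 genes of that list were below the filter, and Jun, Fos and Dusp1 were listed under other roles. Icam1 rose by 0.67 in null against wild type and by 0.83 against heterozygous (limma adjusted p = 0.00509 and 0.00163). Irf3, the interferon factor downstream of TLR4 and TLR3, fell by 0.58 in null against heterozygous (limma adjusted p = 0.00324). Of 16 other pattern recognition receptors and partners, Clec7a (Dectin-1) and Ddx58 (RIG-I) rose in null against wild type (0.60 and 0.54, limma adjusted p = 0.00942 and 0.0409), while Clec4d and Pycard, the inflammasome adaptor, fell (-0.57 and -0.35, limma adjusted p = 0.0207 and 0.0141). Ddx58, Clec4d and Pycard were called in the same direction against heterozygous samples.

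**Figure D5:**
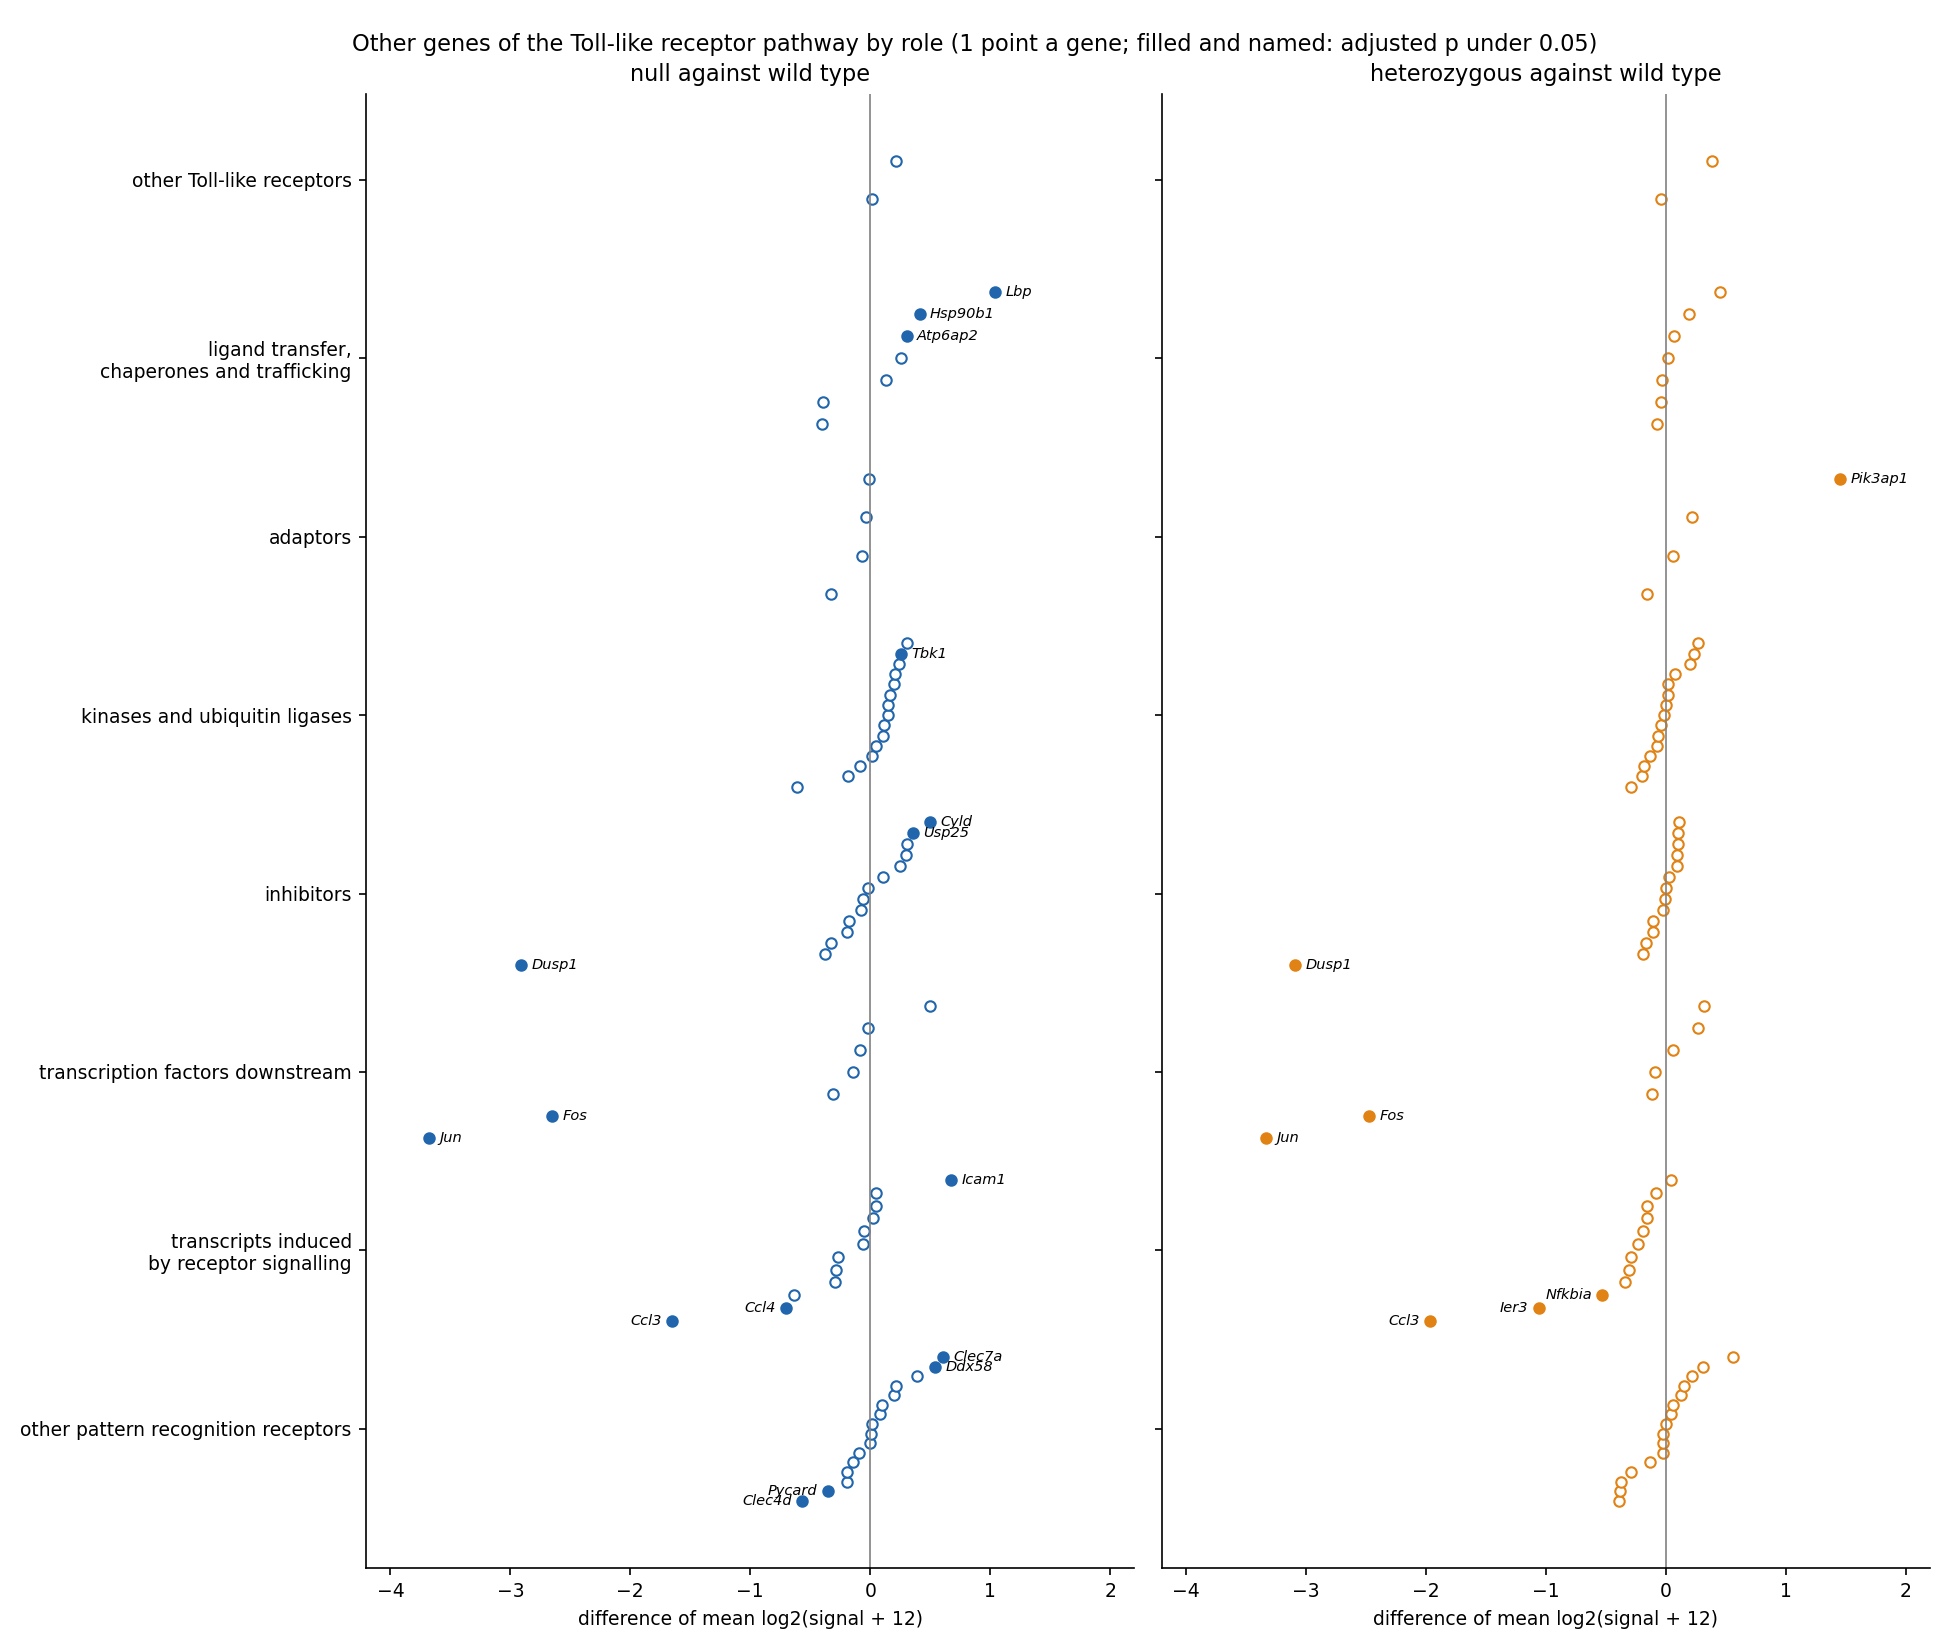
Differences of log2(signal + 12) for the 77 pathway genes tested, 1 point per gene, by role, in null against wild type (left) and heterozygous against wild type (right); filled and named points passed a limma adjusted p of 0.05. Jun, Fos, Dusp1 and Ccl3 lie far below 0 in both panels, and Pik3ap1 stands at 1.45 on the right alone.

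Of the 16 pathway calls in null against wild type, 9 held whichever array was left out: Lbp, Hsp90b1, Atp6ap2, Dusp1, Jun, Fos, Ccl3, Icam1 and Clec7a. The other 7 were lost without certain arrays, with the highest adjusted p in parentheses. These were Ccl4 without null 1 or 2 or wild type 1 or 3 (0.102), Clec4d without null 2 or 3 or wild type 1 (0.0814) and Pycard without null 3 or wild type 3 (0.0651). Cyld was lost without null 2 or 3 or wild type 2 or 3 (0.07), and Ddx58 without null 2 or 3, heterozygous 2 or wild type 1 or 3 (0.171). Usp25 was lost without null 1 or 3, heterozygous 2 or wild type 1 or 2 (0.145), and Tbk1 in 7 of 9 fits, all but those without heterozygous 1 and wild type 1 (0.133). In heterozygous against wild type 5 of 7 calls held; Ier3 and Nfkbia were lost without any 1 heterozygous array or wild type 1 or 2, and Nfkbia also without null 2 (0.133 and 0.177).

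In null against heterozygous 4 of 12 pathway calls held in all 9 such fits: Atp6ap2, Pik3ap1, Irf3 and Icam1. Tbk1 and Pycard were lost without null 3 or heterozygous 1 (0.06 and 0.0697), Clec4d without null 2 or 3 or heterozygous 1 or 2 (0.127), and Irak3 without null 1 or 3 or heterozygous 1 or 2 (0.14). Lbp and Inpp5d were lost without null 1 or 3 or any heterozygous array (0.0954 and 0.143), Ddx58 without null 2 or 3 or any heterozygous array (0.158), and Tab2 in all but the fit without wild type 2 (0.18). The count of calls was lowest at 4 without heterozygous replicate 1.

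Averaging all probe sets of a gene, dim ones included, ended further calls. In null against wild type Ddx58 went to 0.11 (limma adjusted p = 0.679), Tbk1 to 0.18 (0.152), Usp25 to 0.21 (0.155) and Pycard to -0.34 (0.0613). In heterozygous against wild type Nfkbia went to -0.49 (0.0706), and Ier3, with a single probe set, kept its value (0.064). Between null and heterozygous samples Ddx58 went to 0.15 (0.562), Irak3 to 0.20 (0.252), Tab2 to 0.13 (0.285), Pycard to -0.20 (0.266), Inpp5d to 0.43 (0.111) and Irf3 to -0.47 (0.0963). The second probe set of Irak3 differed by -0.01 there. Without the variance trend the calls of Atp6ap2, Clec7a, Cyld, Ddx58, Pycard, Tbk1 and Usp25 were lost in null against wild type, those of Ier3 and Nfkbia in heterozygous against wild type, and those of Clec4d, Ddx58, Lbp, Pycard, Tbk1, Inpp5d, Irak3 and Tab2 in null against heterozygous. Without the filter Ccl4, Ddx58, Tbk1 and Usp25 were lost in the first comparison, Ier3 and Nfkbia in the next and Clec4d, Ddx58, Inpp5d and Tab2 in the last. In null against wild type Ccl4, Tbk1 and Usp25 were also lost under quantile and Ccl4 under cyclic loess normalization, and Ddx58 and Tbk1 with only the 2 groups compared in the fit. Tab2 was lost in null against heterozygous with only those groups in the fit and with a pseudocount of 1.

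Monocyte and macrophage markers moved in both directions beside Cd14 and Tlr4, which mature monocytes express strongly. Of 14 tested in null against wild type, 3 rose (Ccr2, Lyz2 and Fn1) and 5 fell (Irf8, Klf4, Cd68, Ms4a6c and Ctss). Beside these, 15.7% of all genes were called, 7.6% higher and 8.09% lower. Their summed signal was 11055 to 15782 on wild-type arrays, 14455 to 16168 on heterozygous and 13855 to 16747 on null arrays, ranges that overlap. Of the defining genes Csf1r, Ccr2, Cx3cr1 and Mpeg1, only Ccr2 was called, at 640 on wild-type replicate 2 against 1389 and 1587 on the other wild-type arrays. Without wild-type replicate 2 the rises of Cd14 and Tlr4 in null samples were 1.06 and 0.74 (limma adjusted p = 0.00121 and 0.014). The part of monocyte content in these rises was not tested.

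The genes most like each of these receptors were ranked by Pearson r of log2(signal + 12) over the 9 arrays, as a description, since the arrays fall into 3 genotypes that share their differences. For Cd14 they were Tmppe (0.981), Wdr37 (0.979), Tmem65 (0.973), Tada2b (0.972) and Dnajb9 (0.971). All of them were lowest on average in heterozygous and highest in null samples, as Tmem65 at means of 123, 98.6 and 222 in wild type, heterozygous and null. For Tlr4 they were Fmr1 (0.987), Cpeb2 (0.985), Fnip1 (0.978), Pdzd8 (0.976) and Fem1c (0.964), with means that were lowest in wild type and highest in null samples, as Cpeb2 at 98.7, 113 and 201.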

How the data were processed

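The values were the MAS5 signal intensities deposited for 9 arrays, 1 per probe set, with MAS5 named without a version per the submitters' processing notes; other upstream settings are not given in the sources used here. The deposited intensities had a 2% trimmed mean of 100 on every array, which hides any shift common to most genes. Detection calls were not used. Precision is limited by the number of arrays. Of 45101 probe sets 64 were controls. The platform annotation gave 1 symbol to 34945, several to 932 and none to 9160, and 34741 of the first matched RefSeq GRCm38.p6.

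The probe set with the highest mean log2 value stood for a gene. Genes at or above the 40th percentile of probe set means (signal 8.49) were tested on log2(signal + 12) with limma 3.58.1 in R 4.3.3 (eBayes with trend) over all 9 arrays, two-sided (residual degrees of freedom 6, prior 8.1). The script was tested on simulated data. It recovered 74% to 78% of 2-fold and 39% to 43% of 1.5-fold changes, so many differences of 1.5-fold would not be called. Same-numbered arrays deviated together only weakly (r of -0.0272 to 0.143 over 9 pairs), so numbers were not taken as pairs.

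The members, lists and tests were chosen with earlier results of these data known. The rule named all members, pathway genes called in any comparison (otherwise the 2 of a role with the smallest p), defining markers, the 5 genes most like Cd14 and the 5 most like Tlr4, and Dicer1. Other genes, among them Irak1, Traf6, Socs1 and the called markers, were chosen after their values were seen. Alternatives changed the pseudocount, filter, normalization, prior, arrays in the fit, probe set rule and block, and left out each array. Of 10 GMP markers 1 rose (Fcgr3) and 1 fell (Csf3r) in null against wild type, where 15.7% of all genes were called. Of 6 tested erythroid and megakaryocyte markers 0 were called by limma in any comparison (0 at an unadjusted p under 0.05).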

Additional observations from a re-analysis of the deposited data

How the results depend on the processing

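Cd14 in all comparisons and Tlr4 in null against wild type were called in each of 20 alternatives, and no called member changed direction in any. Leaving out 1 array gave 1256 to 1939 called genes in null against wild type (1937 with all arrays; 1256 without null replicate 3), 97 to 169 in heterozygous against wild type (172) and 1033 to 1896 in null against heterozygous (1770). Members called were 2 to 3 (2), 1 to 1 (1) and 1 to 4 (4), and pathway genes 10 to 17 (16), 5 to 8 (7) and 4 to 12 (12). Without the variance trend the counts over all genes were 1290, 83 and 1103, the pathway counts in null against wild type and null against heterozygous 9 and 4, and the members called in the latter 2. Without the filter 112 genes were called in heterozygous against wild type and 2 members in null against heterozygous. Averaging a gene's probe sets gave 86 genes in heterozygous against wild type. Testing each probe set alone called 28 probe sets of pathway genes in null against wild type, a count of probe sets and not of genes. With the number as a replicate block 2111, 201 and 1934 genes were called, with 2, 1 and 4 members and 19, 8 and 14 pathway genes. Under that block Ier3 and Nfkbia were also called lower in null against wild type (limma adjusted p = 0.00801 and 0.0319), Nfkbia higher in null against heterozygous (0.0385) and Clec7a higher in heterozygous against wild type (0.039). The causes were not tested. Tlr7 and other dim genes were too close to the floor to compare.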
